A study of Homo sapiens with 6 samples.

Results

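The transcripts described here are those of 10 integrin subunits that epithelial cells use to hold on to their matrix: the α subunits ITGA2, ITGA3, ITGA5, ITGA6 and ITGAV and the β subunits ITGB1, ITGB4, ITGB5, ITGB6 and ITGB8. Their probe sets were taken by gene symbol, but the choice of these genes was made with earlier results of these data known. On the array, 28 probe sets carried the symbol of exactly 1 of these genes and covered 9 of them, out of 54613 probe sets tested in all. ITGB6 was represented only by 4 probe sets that the annotation gives to both ITGB6 and the non-coding RNA LINC02478, so its values are given apart from the 28 and were not assigned to either gene.

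Integrins are receptors made of an α and a β subunit, which span the plasma membrane and link extracellular matrix to the cytoskeleton. The α subunit largely sets the ligand, and many α subunits share ITGB1 as their partner. In mammary epithelium, integrins sit mostly at the basal and lateral membrane, anchor cells to the basement membrane and help orient the apical-basal axis. ITGA6 paired with ITGB4 is the laminin receptor of hemidesmosomes, the junctions that tie keratin filaments to the basement membrane.

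The cells were MCF-10A, an immortalized and non-transformed human mammary epithelial line. In the CRB3-expressing group (3 arrays), a myc-tagged form of CRB3, a transmembrane protein of the apical Crumbs polarity complex, was introduced by retrovirus. The vector control group (3 arrays) received the empty retroviral vector. By their labels, both groups were selected with puromycin and grown in the usual MCF-10A growth medium, and total RNA was taken from proliferating, subconfluent monolayers. The comparison asked which transcripts changed with ectopic CRB3 expression. Monolayers lack the reconstituted basement membrane in which acini are grown, and the sources used here do not say whether each stable population was a pool or a clone, or whether the arrays of a group came from separate infections. The p-values therefore measure only the spread between these samples, which may be technical.

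All values are log2 probe set intensities. They measure the share of a transcript in the RNA of the whole culture, so fewer cells with a transcript and less of it per cell cannot be told apart, and they say nothing of receptor at the cell surface. A probe set was called when limma gave an adjusted p (Benjamini-Hochberg over all 54613 probe sets) under 0.05 and the fold change was above 1.5. CRB3 itself had values of 12.16, 12 and 12.19 on the CRB3-expressing arrays, against 7.90, 7.59 and 7.85 on the vector control arrays, a 20.1-fold difference, so every array fitted its label. The arrays correlated at r = 0.997 to 0.998 within groups and 0.994 to 0.996 across groups (over 54613 probe sets, which are not independent replicates). KRT5, a keratin of basal mammary epithelium, averaged 13.58 ± 0.06 in CRB3-expressing cells, against 13.62 ± 0.03 in vector control cells (SD, n = 3 each). KRT14 rose by 1.83 among 3 measured basal markers, and MUC1 and KRT8 rose by 1.92 and 1.08 among 7 luminal markers. The luminal markers KRT19 and ESR1 lay the other way, at -0.17 and -0.04, and passed neither threshold. CDH3, KRT18, EPCAM and GATA3 were higher by 0.36 to 0.40, past the adjusted p but not the fold, and 0 of 4 leukocyte and endothelial markers were called in either direction. Of 6 fibroblast markers, 1 was called, DCN, a matrix proteoglycan, which fell by 0.76, and the mean log2 level of the 6 was 5.66 to 5.72 on CRB3-expressing arrays, against 5.78 to 5.87 on vector control arrays. The part of these marker differences in the integrin values was not tested.

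None of the 28 integrin probe sets was called, with 0 higher and 0 lower, in an experiment in which 0.948% of all probe sets were called higher and 0.363% lower. Read as genes, with each gene represented by its brightest probe set, 0 of 9 were called in either direction, against 1.43% of all 19775 genes called higher and 0.465% called lower. With so few members, a count of 0 is close to what these shares give. At an adjusted p under 0.05 and any fold, ITGA6 was lower in 1 probe set, where 1.39% of all probe sets were lower and 2.24% were higher. At an unadjusted p under 0.05, 0 integrin probe sets were higher and 5 were lower, where 8.15% of all probe sets were higher and 8.16% lower.

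**Figure D1:**
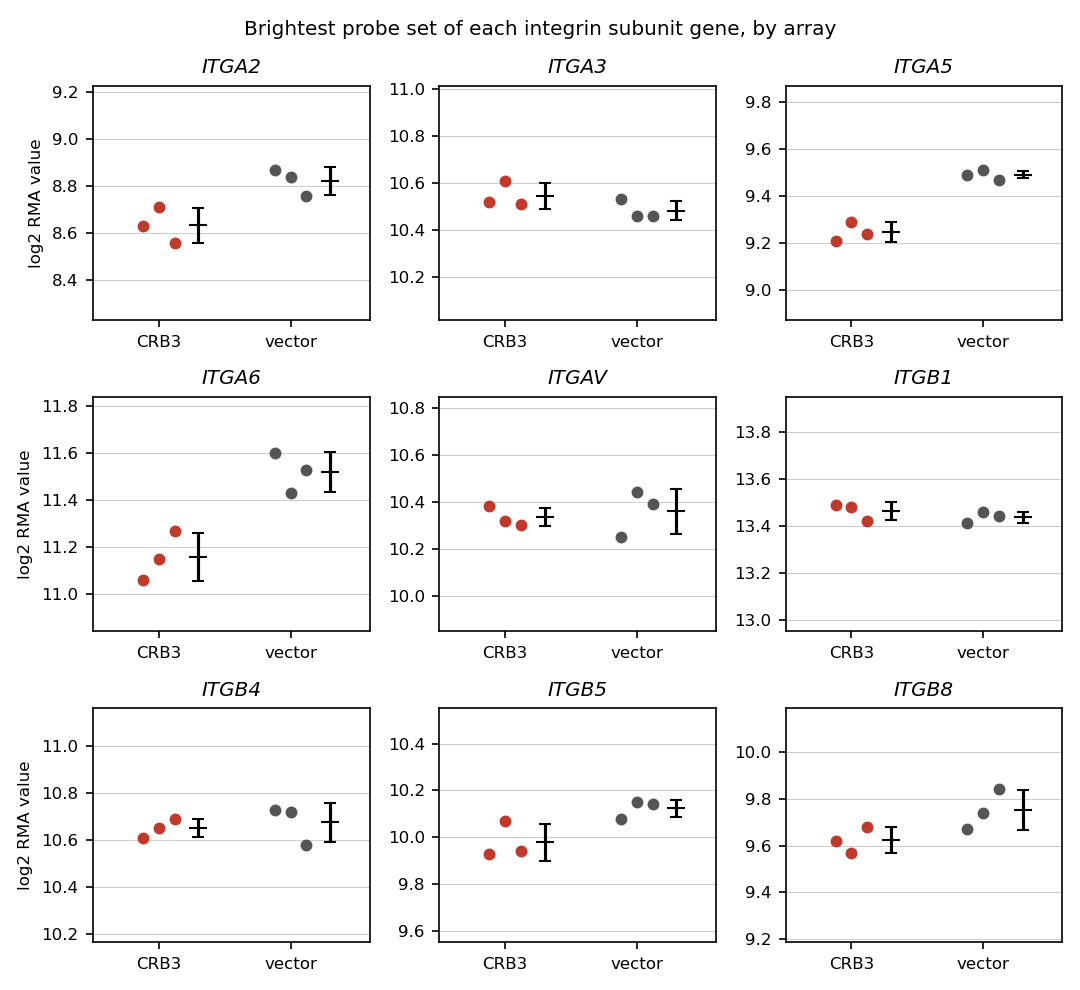
Log2 value (vertical axis) of the brightest probe set of each of the 9 integrin genes on each array, with CRB3-expressing arrays left and vector control arrays right; points are arrays, and the black bars give the mean and SD of 3 arrays; each panel spans 1 log2 unit. The groups separate for ITGA2, ITGA5, ITGA6 and ITGB5, with the CRB3-expressing arrays lower, and overlap in the other 5 panels.

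ITGA6, the laminin-binding α subunit of hemidesmosomes, showed the only difference that passed the adjusted p. Its brightest probe set (215177_s_at) had values of 11.06, 11.15 and 11.27 in CRB3-expressing cells, against 11.60, 11.43 and 11.53 in vector control cells. All CRB3-expressing arrays lay under all vector control arrays. The difference was -0.36 (SE 0.08; limma adjusted p = 0.0388), or 1.28-fold higher in vector control cells, with a 95% interval of -0.53 to -0.19 that stayed inside the 1.5-fold threshold. The second ITGA6 probe set (201656_at) read 11.02, 10.82 and 10.97 in CRB3-expressing cells, against 11.21, 11.18 and 11.15 in vector control cells. Its groups did not overlap either, and the difference was -0.24 (95% interval -0.40 to -0.08; limma adjusted p = 0.119). That adjusted p was 0.0452 when only probe sets above a log2 value of 6 were tested. It was 0.0150 with a mean-variance trend and robust prior, and up to 0.297 with an array left out. The adjusted p of the brighter probe set rested on few arrays: it was 0.131 without CRB3 replicate 1, 0.130 without CRB3 replicate 2, 0.130 without vector replicate 1, 0.0532 without vector replicate 2 and 0.106 without vector replicate 3, and stayed under 0.05 only without CRB3 replicate 3 (0.0437), with the difference between -0.31 and -0.41 throughout.

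ITGA3 pairs with ITGB1 as another laminin receptor of epithelial cells. It read 10.52, 10.61 and 10.51 in CRB3-expressing cells, against 10.53, 10.46 and 10.46 in vector control cells. The groups overlapped, and the difference of 0.06 had a 95% interval of -0.08 to 0.20 (limma adjusted p = 0.686).

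ITGA5, the α subunit of the classical fibronectin receptor, had the tightest replicates among the α subunits that separated. Its probe set (201389_at) had values of 9.21, 9.29 and 9.24 in CRB3-expressing cells, against 9.49, 9.51 and 9.47 in vector control cells. The groups did not overlap, with CRB3-expressing arrays lower. The difference of -0.24 (SE 0.06; 95% interval -0.38 to -0.11) missed the threshold at a limma adjusted p of 0.0647. It fell to either side of that threshold with the fit, since the adjusted p was 0.0172 when only probe sets above a log2 value of 6 were tested and 0.0131 with a mean-variance trend and robust prior, and up to 0.189 with an array left out.

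ITGA2, the collagen-binding partner of ITGB1, was measured by a pair of probe sets that did not give the same reading. The brighter (227314_at) had values of 8.63, 8.71 and 8.56 in CRB3-expressing cells, against 8.87, 8.84 and 8.76 in vector control cells. There the groups did not overlap, and the difference was -0.19 (95% interval -0.34 to -0.04; limma adjusted p = 0.204). The other probe set (205032_at) read 8.04, 8.09 and 8.0 in CRB3-expressing cells, against 8.12, 8.06 and 8.01 in vector control cells. These values overlapped, with a difference of -0.02 (limma adjusted p = 0.908).

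ITGAV binds matrix proteins that carry an RGD motif and can pair with ITGB1, ITGB5, ITGB6 or ITGB8. It read 10.38, 10.32 and 10.30 in CRB3-expressing cells, against 10.25, 10.44 and 10.39 in vector control cells. The vector control values enclosed the CRB3-expressing ones, and the difference was -0.02 (95% interval -0.18 to 0.13; limma adjusted p = 0.909).

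ITGB1, the common β partner, had the narrowest spread of the β subunits in its brightest probe set. That probe set (211945_s_at) had values of 13.49, 13.48 and 13.42 in CRB3-expressing cells, against 13.41, 13.46 and 13.44 in vector control cells. The groups overlapped, and the difference was 0.03 (95% interval -0.11 to 0.16; limma adjusted p = 0.874). The other ITGB1 probe sets above a log2 value of 6 were 1553678_a_at, with a difference of -0.09, and 1553530_a_at, with -0.04. The remaining 4 ITGB1 probe sets (216178_x_at, 216190_x_at, 215878_at and 215879_at) were dim, with group means between 3.09 and 4.19 and differences of -0.10 to 0.08.

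ITGB4 differs from the other β subunits in its long cytoplasmic tail, which binds plectin and so reaches the keratin network. Its brightest probe set (204990_s_at) read 10.61, 10.65 and 10.69 in CRB3-expressing cells, against 10.73, 10.72 and 10.58 in vector control cells. The groups overlapped, and the difference was -0.02 (95% interval -0.18 to 0.13; limma adjusted p = 0.900). A second probe set (204989_s_at) read 10.14, 10.20 and 10.73 in CRB3-expressing cells, against 10.84, 10.31 and 10.60 in vector control cells. A further probe set (211905_s_at) read 8.06, 8.11 and 8.63 in CRB3-expressing cells, against 8.89, 8.12 and 8.58 in vector control cells. In both, CRB3-expressing replicate 3 and vector control replicates 1 and 3 were high and the other arrays low, so the spread ran across the groups. Their pooled SDs of 0.300 and 0.353 exceeded those of 99.5% and 99.8% of all probe sets. The differences were -0.23 (95% interval -0.63 to 0.17) for 204989_s_at and -0.26 (95% interval -0.72 to 0.20) for 211905_s_at, which leaves a 1.5-fold lower level in CRB3-expressing cells inside both intervals. The other ITGB4 probe sets were close to 0, with differences of -0.01 for 230704_s_at (95% interval -0.25 to 0.22) and 0.02 for the dim 214292_at (95% interval -0.27 to 0.31).

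ITGB5 pairs with ITGAV as a vitronectin receptor. Its brightest probe set (201125_s_at) read 9.93, 10.07 and 9.94 in CRB3-expressing cells, against 10.08, 10.15 and 10.14 in vector control cells. The CRB3-expressing arrays were lower without overlap, by a difference of -0.15 whose 95% interval of -0.30 to 0.0045 took in 0 (limma adjusted p = 0.324). The probe set 214020_x_at also separated, with values of 8.85, 8.89 and 8.87 in CRB3-expressing cells, against 8.92, 8.95 and 8.99 in vector control cells, by -0.08. The probe set 214021_x_at had the largest difference of the 28, at -0.42 (95% interval -0.82 to -0.02; limma adjusted p = 0.283), with values of 5.57, 5.37 and 6.03 in CRB3-expressing cells, against 6.11, 5.80 and 6.32 in vector control cells. Its groups overlapped through CRB3-expressing replicate 3, and without that array the difference was -0.61 (limma adjusted p = 0.0974). The probe set 201124_at differed by -0.08, well inside its replicate spread.

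ITGB8 pairs with ITGAV and is known for activating latent TGF-β. Its brightest probe set (226189_at) read 9.62, 9.57 and 9.68 in CRB3-expressing cells, against 9.67, 9.74 and 9.84 in vector control cells. The highest CRB3-expressing array overlapped the lowest vector control array, and the difference was -0.13 (95% interval -0.28 to 0.03; limma adjusted p = 0.414). The other 4 ITGB8 probe sets (242982_x_at, 205816_at, 211488_s_at and 1563010_at) were dim, with group means between 4.27 and 5.86 and differences of -0.20 to 0.10.

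ITGB6, which also pairs with ITGAV to bind latent TGF-β, could be read only through the shared probe sets. The brightest (226535_at) had values of 8.98, 8.86 and 8.72 in CRB3-expressing cells, against 8.81, 8.89 and 8.87 in vector control cells. The groups overlapped, with a difference of -0.0028 (95% interval -0.18 to 0.17; limma adjusted p = 0.991). The probe sets 208084_at and 208083_s_at carry a transcript accession that RefSeq assigns to ITGB6, and they differed by 0.04 and -0.10. The fourth shared probe set, 239517_at, was dim and differed by 0.06, and 0 of the 4 were called in either direction.

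**Figure D2:**
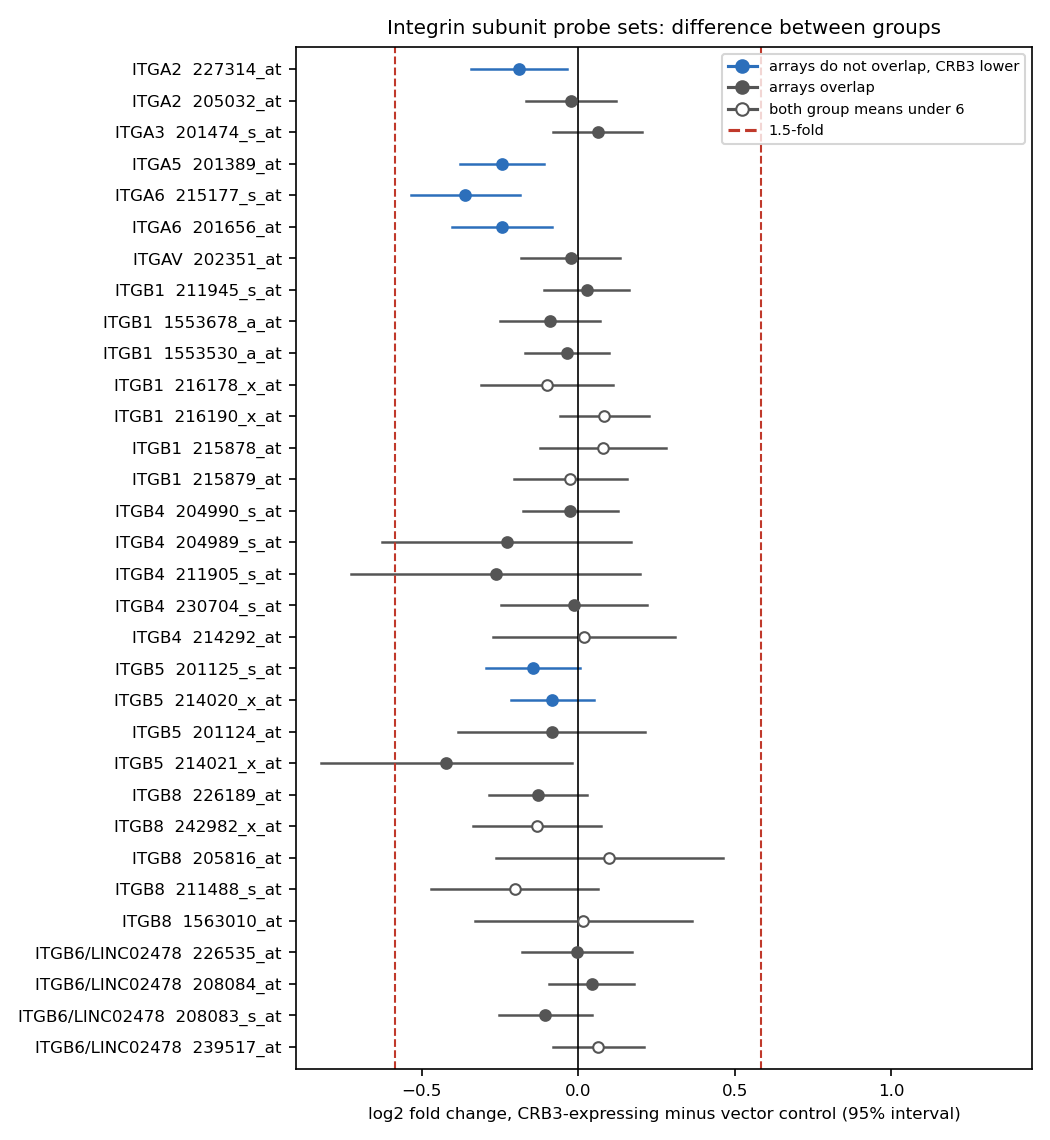
Difference in log2 value (horizontal axis, CRB3-expressing minus vector control), with its 95% interval, for each of the 28 integrin probe sets and the 4 shared by ITGB6 and LINC02478 (rows). Blue points are probe sets whose arrays do not overlap with CRB3-expressing lower, open points have both group means under a log2 value of 6, and dashed lines mark 1.5-fold; 25 of the 28 intervals lie between the dashed lines.

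Across the 28 probe sets, the differences were small and lay mostly below 0. The median difference was -0.08, against 0.0012 over all probe sets, with 7 above 0 and 21 below 0, and the range was -0.42 to 0.10, against -1.86 to 4.87 over all probe sets. For the 9 genes in their brightest probe sets the median was -0.13, against 0.0066 over all genes, with ITGA3 and ITGB1 above 0 and the other 7 below. Probe sets of a gene share their transcript, so these counts are a description and not independent readings. The groups did not overlap in 6 integrin probe sets, all with CRB3-expressing arrays lower, where 10.7% of all probe sets separated in that direction and 11.1% in the other. These 6 were the brighter ITGA2 probe set, ITGA5, both ITGA6 probe sets and the ITGB5 probe sets 201125_s_at and 214020_x_at.

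The intervals rest on the spread between these samples, which may be technical, so they describe these arrays and bound no effect beyond them. In 25 of 28 integrin probe sets, or 89.3%, the 95% interval lay wholly within 1.5-fold in either direction, against 96.1% of all probe sets. All 9 genes met this in their brightest probe sets, as did 95.9% of all genes. The exceptions were 204989_s_at and 211905_s_at of ITGB4 and 214021_x_at of ITGB5. In 9 of the 28, both group means were under a log2 value of 6, where a change may be understated, so narrow intervals there say little.

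An array pattern in some of the probe sets was noticed after the values were seen. CRB3-expressing replicate 3 and vector control replicates 1 and 3 were the highest arrays in 5 of 28 integrin probe sets, or 17.9%. They were 204989_s_at, 211905_s_at and 214292_at of ITGB4, 214021_x_at of ITGB5 and 1553530_a_at of ITGB1, the last with a pooled SD of only 0.028. Of the 7 integrin probe sets with a pooled SD of at least 0.2, 4 had this pattern, and 205816_at and 1563010_at of ITGB8 and 201124_at of ITGB5 did not. The same arrays were highest in 6.43% of all probe sets and in 16.1% of the 547 probe sets with the largest pooled SD. The hybridization controls averaged 10.68 on CRB3-expressing replicate 3, 11.05 on vector control replicate 1 and 10.84 on vector control replicate 3, against 10.60 to 10.67 on the other arrays, and their part in this pattern was not tested. The array's 3′ and 5′ controls for GAPDH and ACTB stayed within 0.0855 of each other everywhere.

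**Figure D3:**
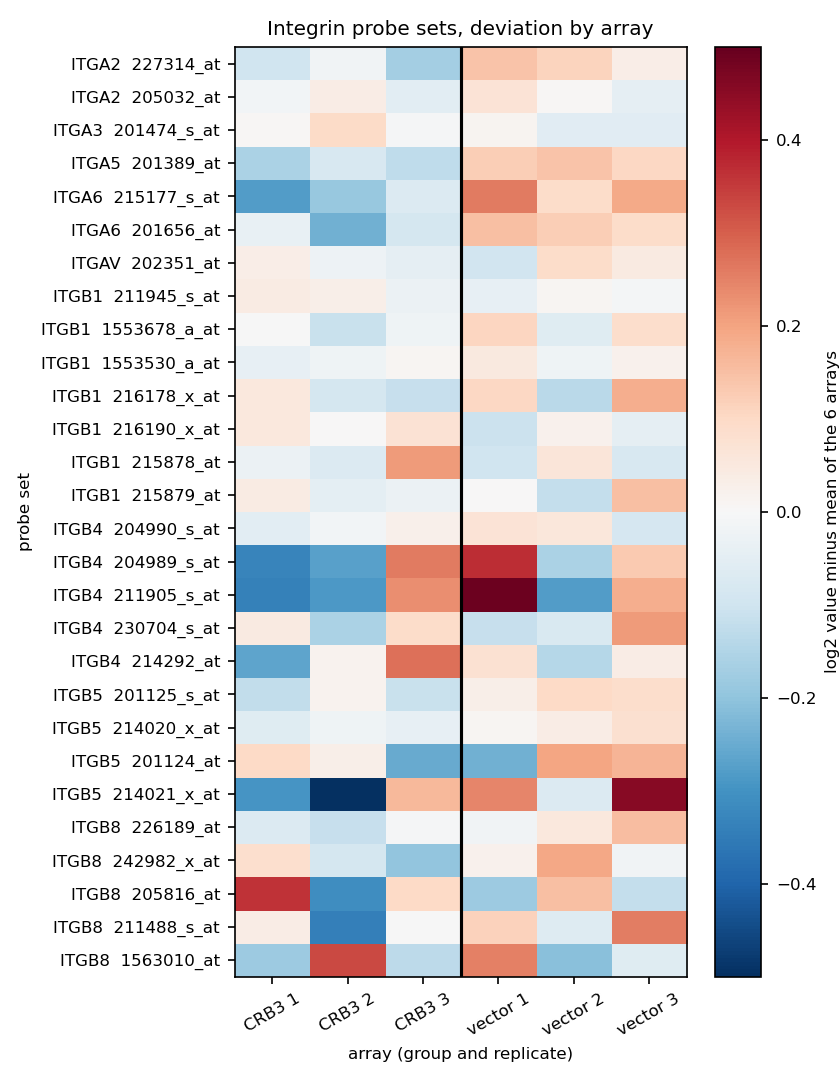
Deviation of each array (columns, CRB3-expressing left, vector control right) from the mean of the 6 arrays, in log2 units by colour, for each integrin probe set (rows). The ITGA6 and ITGA5 rows change colour between the groups, while 204989_s_at and 211905_s_at of ITGB4 are high on CRB3-expressing replicate 3 and vector control replicates 1 and 3.

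Because an integrin reaches the membrane only as a heterodimer, the change of each α subunit was set against that of its partner on the same array. The value compared was the α minus the β log2 value of the brightest probe sets, whose absolute size depends on the probes and has no meaning by itself. ITGA6 minus ITGB4 was 0.45, 0.49 and 0.58 in CRB3-expressing cells, against 0.87, 0.71 and 0.95 in vector control cells. The groups did not overlap, and the balance was lower in CRB3-expressing cells by a difference of -0.34. ITGA6 minus ITGB1 also separated, by -0.39, as did ITGA5 minus ITGB1, by -0.27, and ITGA2 minus ITGB1, by -0.22. ITGB4 and ITGB1 themselves differed by -0.02 and 0.03, so these 4 balances largely repeat the α differences given above and are not separate results. Each of these 4 had p = 0.1 in a two-sided exact permutation test, which is the smallest that 3 against 3 arrays allow, and 0.2 after adjustment over the 8 pairs. With all probe sets of a gene averaged, the balance of ITGA6 with ITGB4 was -0.20 and that of ITGA2 with ITGB1 was -0.10, each with an exact p of 0.2, while those of ITGA6 and ITGA5 with ITGB1 were -0.29 and -0.24, each with an exact p of 0.1. The balance of ITGA3 with ITGB1 changed by 0.04 (exact p = 0.5), and those of ITGAV with ITGB1, ITGB5 and ITGB8 by -0.05, 0.12 and 0.10 (exact p = 0.4, 0.2 and 0.2).

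The remaining integrin subunits include receptors of leukocytes, platelets and mesenchyme. Of 16 measured, 0 were called higher and 1 lower, and the median difference was 0.04. The called gene was ITGA10, a collagen-binding partner of ITGB1 best known in cartilage. It had values of 7.22, 7.15 and 7.2 in CRB3-expressing cells, against 8.02, 8.22 and 8.13 in vector control cells. The groups were far apart relative to their spread, and ITGA10 fell by 0.93 (SE 0.07; limma adjusted p = 0.000113). ITGB2, the β subunit of leukocyte integrins, is named after its values were seen: its brightest probe set differed by 0.57 (limma adjusted p = 0.00524), under the fold threshold, and a second, 202803_s_at, was called higher at 0.60. That second probe set read 8.28, 8.22 and 8.27 in CRB3-expressing cells, against 7.57, 7.70 and 7.70 in vector control cells. The last ITGB2 probe set, 236988_x_at, differed by 0.04 (limma adjusted p = 0.857). The ITGB2 difference in the brightest probe set passed 1.5-fold without CRB3 replicate 2 (0.59), without vector replicate 2 (0.62) or without vector replicate 3 (0.59).

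Of 29 measured matrix ligands, 3 were called higher and 1 lower, with a median of -0.04. THBS1, a matricellular glycoprotein, had values of 12.07, 12.09 and 12.14 in CRB3-expressing cells, against 11.30, 11.06 and 11.16 in vector control cells. It rose by 0.93 (limma adjusted p = 0.000175), and 5 of its 7 probe sets were called. CCN1, a matricellular protein that binds ITGAV and ITGA6 receptors, read 11.15, 11.05 and 10.99 in CRB3-expressing cells, against 10.19, 10.13 and 10.14 in vector control cells. It rose by 0.91 (limma adjusted p = 9.3e-05), with a second probe set at 0.77. FN1, the fibronectin that the ITGA5 receptor binds, read 9.0, 8.88 and 8.72 in CRB3-expressing cells, against 8.25, 8.23 and 8.34 in vector control cells. It rose by 0.59 (limma adjusted p = 0.00421), close to the fold threshold, and 3 further probe sets at 0.54 to 0.57 passed the adjusted p but not the fold. The FN1 difference was 0.53 without CRB3 replicate 1, 0.58 without vector replicate 1 and 0.57 without vector replicate 2, each under the fold threshold. LTBP1, which tethers latent TGF-β to the matrix, read 9.65, 9.71 and 9.67 in CRB3-expressing cells, against 10.33, 10.45 and 10.31 in vector control cells. It fell by 0.69 (limma adjusted p = 0.000456), and its second probe set fell by 0.65. TGFB1, the growth factor whose latent form the ITGAV receptors bind, is named after its values were seen. Its brightest probe set differed by -0.45 (limma adjusted p = 0.00467), under the fold threshold, and the other by -0.0027. Also named so are LAMB1, MFGE8 and the dim SPP1, at -0.41, -0.37 and 0.32, past the adjusted p but not the fold.

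Of 32 measured cytoplasmic activators and adaptors, which connect β tails to actin and kinases, 0 were called in either direction, and the median was 0.07. The smallest p-values belonged to LIMS1 and PARVA, partners of integrin-linked kinase. LIMS1 was read only in dim probe sets, with values of 4.37, 4.29 and 4.36 in CRB3-expressing cells, against 4.0, 4.09 and 4.12 in vector control cells (difference 0.27; limma adjusted p = 0.0581). PARVA read 9.17, 9.22 and 9.23 in CRB3-expressing cells, against 8.94, 9.01 and 8.99 in vector control cells (difference 0.23; limma adjusted p = 0.0859). Neither gene overlapped between groups in these probe sets, where 11.1% of all probe sets separated in that direction. The other LIMS1 probe sets overlapped, with differences of 0.09 and 0.01. Among the other PARVA probe sets, 222454_s_at also separated, by 0.26, and the rest overlapped, with differences of -0.08 to 0.24.

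Of 13 measured membrane partners, 2 were called higher and 0 lower, with a median of -0.01. PLAUR, the urokinase receptor, had values of 9.14, 9.19 and 9.03 in CRB3-expressing cells, against 8.44, 8.41 and 8.41 in vector control cells, and rose by 0.70 (limma adjusted p = 0.000449). A second PLAUR probe set rose by 0.73, and the last differed by 0.44, under the fold threshold. CD9, a tetraspanin that associates with ITGB1 receptors, read 12.51, 12.52 and 12.69 in CRB3-expressing cells, against 11.97, 11.85 and 12.01 in vector control cells. It rose by 0.63 (limma adjusted p = 0.00204), with 0.57 without CRB3 replicate 3 and 0.58 without vector replicate 2, both under the fold threshold.

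Among the hemidesmosome partners of ITGA6 and ITGB4, DST and PLEC were measured, and DST was called lower. DST encodes dystonin, whose epithelial form links keratin filaments to the hemidesmosome and whose other forms serve neurons and muscle. Its brightest probe set (204455_at) read 9.71, 9.43 and 9.66 in CRB3-expressing cells, against 10.76, 10.69 and 10.40 in vector control cells. The groups did not overlap, and DST fell by 1.02 (SE 0.11; limma adjusted p = 0.00106), with 216918_s_at lower by a difference of -0.93. Its probe sets were not of one kind, since 212254_s_at and 215016_x_at each differed by -0.27 (limma adjusted p = 0.223 and 0.227). PLEC, or plectin, which joins the ITGB4 tail to keratin, differed by -0.15 (limma adjusted p = 0.608) in 216971_s_at and by 0.04 in 201373_at.

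Of 20 measured genes of integrin endocytosis and recycling, 1 was called higher and 0 lower, with a median of 0.02. The called gene was RAB11FIP1, a Rab11 effector that returns integrins to the surface. Its brightest probe set (225177_at) read 8.88, 9.04 and 9.18 in CRB3-expressing cells, against 8.43, 8.47 and 8.44 in vector control cells. The difference of 0.59 (limma adjusted p = 0.00449) only just passed 1.5-fold, and the call was lost without CRB3 replicate 2, CRB3 replicate 3, vector replicate 1 or vector replicate 3. A second probe set (219681_s_at) rose by 0.75 (limma adjusted p = 0.000305), while the last (231830_x_at) differed by 0.22 (limma adjusted p = 0.266). RAB25, which binds ITGB1 and recycles it with its α partners, is named after its values were seen, with a difference of 0.33 (limma adjusted p = 0.0178) under the fold threshold.

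Over the 6 lists, 112 of 119 genes were measured, with a median of 0.02. Of the 112, 6 were called higher and 3 lower, where 1.43% and 0.465% of all genes were. The lists were chosen with earlier results of these data known, so these counts are a description and not a result about these genes.

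**Figure D4:**
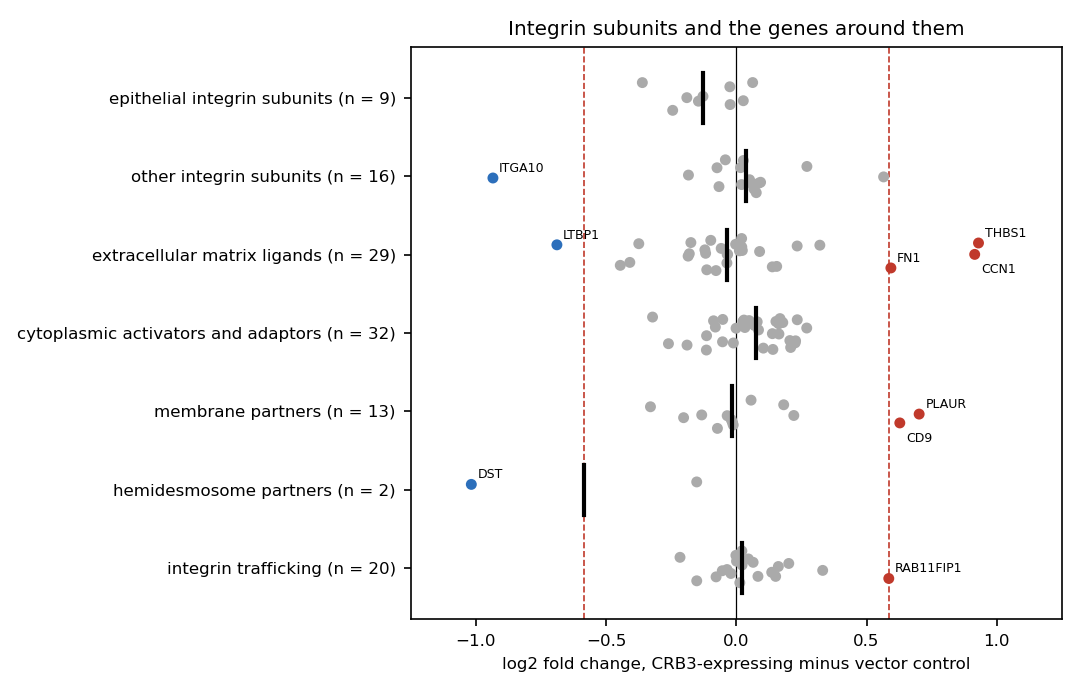
Difference in log2 value (horizontal axis, CRB3-expressing minus vector control) of each gene in its brightest probe set, for the 9 integrin genes and the 6 lists around them (rows); black bars are medians, red points were called higher, blue points called lower, and dashed lines mark 1.5-fold. The integrin genes all lie between the dashed lines, while ITGA10, LTBP1 and DST lie to the left and THBS1, CCN1, FN1, PLAUR, CD9 and RAB11FIP1 to the right.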

How the data were processed

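Total RNA of CRB3-expressing and vector control MCF-10A cells, 3 samples each, was hybridized to Affymetrix Human Genome U133 Plus arrays. Background correction and normalization across the 6 arrays were done by the authors with Robust Multichip Average, and each deposited log2 value stands for 1 probe set on 1 array and was used here unchanged. Versions of these tools are not given in the sources used here. Groups came from the sample labels. The log2 values carry no detection calls, changes of dim probe sets may be understated, and precision is limited by how few arrays there were.

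Differences (CRB3-expressing minus vector control) were tested over 54613 probe sets, leaving out 62 control probe sets, by lmFit and eBayes of limma 3.58.1 (R 4.3.3), and p-values were adjusted over that whole set (Benjamini-Hochberg). Thresholds followed the study's methods. Gene symbols came from the platform annotation: 41091 probe sets had 1 symbol, 1801 several and 11721 none. A gene was read in its brightest single-symbol probe set, by the mean of all 6 arrays. The balance of subunits was tested by exact permutation over arrays; ITGAV with ITGB6 was not computed, because ITGB6 had no probe set of its own. Listed genes that are not among the measured ones were not analysed here. Simulated data with known changes were used to test the fit.

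Every integrin subunit was named with its probe sets, and of each list every called gene up to 6, or, in a list without calls, the 2 genes with the smallest p-values. The members, lists and rules were chosen with earlier results of these data known. Alternatives were the replicate number as a block, other variance models, median-centring, quantile normalization, filters on dim probe sets, array weights, other fold thresholds, treat, other rules for a gene's probe set, and leaving out each array.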

Additional observations from a re-analysis of the deposited data

How the results depend on the processing

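The counts of called integrin probe sets and genes were 0 in both directions under all alternatives but that without a fold threshold, where 1 probe set and 1 gene, ITGA6, were lower. With arrays left out in turn, the ITGAV difference ranged from -0.078 to 0.0146 and that of ITGB4 from -0.0722 to 0.0013. Without probe sets ending in _s_at or _x_at, ITGB1 differed by -0.0889 and ITGB4 by 0.0189, and with the mean of all probe sets of a gene ITGB1 differed by -0.0086. These alternatives read other or more probe sets, and none of these values passed the test. The deviations of same-numbered arrays from their group means correlated at r = -0.08, 0.06 and 0.03. With so few arrays these values cannot show whether the numbers pair samples, and the sources used here do not say. With the replicate block, 0 integrin probe sets were called higher and 0 lower, the adjusted p of ITGA6 was 0.0792, and that of 214021_x_at of ITGB5 was 0.0361, at a difference under the fold threshold. Over the other alternatives to the fit, treat aside, that probe set had an adjusted p of 0.0974 to 0.568. The adjusted p of ITGA6 was 0.171 with an ordinary pooled variance and 0.0018 with a mean-variance trend and robust prior.

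Without a fold threshold, 1 other integrin subunit and 2 trafficking genes were higher. Of the matrix ligands, 4 were then lower, and THBS1, CCN1, FN1 and SPP1 were higher. With arrays left out in turn, the count of other integrin subunits called higher was 0 to 1, that of membrane partners called higher 1 to 2 and that of trafficking genes called higher 0 to 1. The treat test against 1.5-fold ended the calls of all 9 named pathway genes, and an ordinary pooled variance or the mean of all probe sets ended 4 each, those of FN1, CD9, DST and RAB11FIP1. Median-centring ended those of FN1 and RAB11FIP1, and array weights that of RAB11FIP1. The cause was not tested. The signal of 9 integrin probe sets was dim in both groups, which limits what these arrays can show of them.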

Other observations

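The array pattern described for ITGB4 and ITGB5, with CRB3-expressing replicate 3 and vector control replicates 1 and 3 highest, was also counted over the integrin and list genes together, after the values were seen. It was found in 31 of 345 probe sets, or 8.99%, against 6.43% of all probe sets. The 345 include the 28 integrin probe sets in which the pattern was first noticed, which hold 5 of the 31. Of the 31, 15 had a pooled SD of at least 0.18. PXN, TLN1, RAB11B, AP2A1 and PLEC were among the genes with such a probe set.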
